A study of Mus musculus with 9 samples.

Results

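The cell cycle and DNA replication genes are 42 protein-coding genes, chosen by symbol from the 51912 genes of the deposited table. They fall into 15 S-phase genes, which build and feed the DNA replication machinery, 5 regulators of the step from G1 into S phase, and 22 mitotic genes, most of which are made in G2 and act when chromosomes condense and separate. All 42 were found in the table, and 41 passed the minimum mean of 5 normalized counts used for the tests. *Cdt1*, which loads the replicative helicase onto DNA, stayed below it with a mean of 4.09.

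The values come from bulk RNA of micro-dissected midbrains of E14.5 C57Bl/6 mouse embryos. *Nkx2.9* encodes a homeobox transcription factor. In the targeted allele, LacZ stands in place of the first exon, in every cell and from the start of development. The 9 libraries comprise 3 labelled wild type (*Nkx2.9*+/+), 3 labelled heterozygous (*Nkx2.9*LacZ/+, 1 targeted allele) and 3 labelled knockout (*Nkx2.9*LacZ/LacZ, 2 targeted alleles). According to the methods, each library pooled 2 midbrains. The columns of the table carry the genotype but no replicate number, so that libraries are named here by column. Columns 1 to 3 are the knockout libraries, columns 4 to 6 the heterozygous and columns 7 to 9 the wild-type ones, all as labelled.

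In the embryonic midbrain, dividing progenitors line the ventricle, and their daughters leave the cell cycle as they become neurons. Transcripts of S-phase genes are driven largely by E2F factors and rise before and during DNA synthesis. Those of mitotic genes rise later, under the control of the DREAM and MMB-FOXM1 complexes and of CHR and CCAAT elements in their promoters. The level of both classes in bulk tissue therefore follows the share of cycling cells and the phases in which they are. Whether cells of the midbrain divided at another rate without *Nkx2.9* was a question of the study, and these genes address it at the level of RNA. In bulk tissue, fewer cells of a type and less RNA per cell cannot be told apart.

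The libraries held 1692963 to 5942192 reads on genes. The least deep were column 7 (*Nkx2.9*+/+) with 1692963 reads and column 4 (*Nkx2.9*LacZ/+) with 2584074, where 1 read was worth 2.59 and 1.63 normalized counts. A count of 0 in column 7 allows a level of up to 7.76 normalized counts (3 reads). *Cdc45*, *Cdt1* and *E2f1* had 0 reads in that library, and no member had 0 reads in any other library. *Nkx2-9* itself had 28 reads in all libraries together. They were 4, 6 and 3 in columns 1 to 3 (knockout by label), 0, 7 and 4 in columns 4 to 6 and 0, 2 and 2 in columns 7 to 9 (wild type by label), or 2.58 to 5.49 normalized counts in columns 1 to 3 against 0 to 1.47 in columns 7 to 9. By the labels, columns 1 to 3 should be the lower ones, but they lay above columns 8 and 9. The 0 of column 7 allows a level above theirs, and counts of 0 to 7 reads do not say which exon they came from, so that they cannot check the labels. Genotype names below stand for the column labels. If those of columns 1 to 3 and 7 to 9 were exchanged, every difference between them would change its sign. Each comparison of columns 4 to 6 would also change partner, heterozygous against wild type becoming heterozygous against knockout. The values used here do not settle which labels are right. *Xist*, the RNA of the inactive X chromosome of female cells, was at 4607 to 5182 normalized counts in columns 1 to 3 and at 14.52 to 4342 in the other 6. It was high in all 3 columns labelled *Nkx2.9*LacZ/LacZ and varied within both other genotypes, and the part of sex in the differences was not tested. The midbrain gene *Otx2* was present in every library (205 to 329), as was the progenitor gene *Sox2* (126 to 217).

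The classes differ in the E2F and CHR letters of their promoters, while CCAAT letters were common in both. Promoter windows from RefSeq (GRCm38.p6), from 250 bases before to 50 bases after a transcription start, were at hand for 32 of the 42 genes. They were searched on both strands for the E2F letters TTTCCCGC, TTTGGCGC, TTTCGCGC and TTTGCCGC, for the CHR letters TTTGAA and for the CCAAT box letters CCAAT. E2F letters were found in 6 of 12 S-phase windows (50%) and in 1 of 18 mitotic windows (5.56%), beside 2.32% of all 27025 windows. CHR letters were found in 2 S-phase windows (16.7%) and 13 mitotic windows (72.2%), beside 18.1% of all windows. CHR and CCAAT letters stood together in those same shares of the S-phase and mitotic windows, and in 7.12% of all windows. CCAAT letters, with or without CHR, were found in 9 S-phase windows (75%) and 16 mitotic windows (88.9%), beside 37.9% of all windows. The windows of *Ccne1* and *E2f1*, the 2 G1/S genes that had one, held none of the 3 motifs as spelled here. Only 1 window per gene, the first listed, was searched, so that other starts and other spellings of a site were missed. The S-phase stretches below are shown for their E2F letters, in capitals, which overlap on opposite strands in *Mcm5* and *Mcm6* (as TTTCGCGC and TTTGGCGC).

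*Mcm5*, chr8:75109344-75109379, plus strand: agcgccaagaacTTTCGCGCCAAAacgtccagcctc

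*Mcm6*, chr1:128359741-128359820, minus strand, with a CCAAT box (as ATTGG) between its E2F letters: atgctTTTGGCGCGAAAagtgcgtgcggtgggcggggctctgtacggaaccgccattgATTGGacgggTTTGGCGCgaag

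*Mcm7*, chr5:138172033-138172055, minus strand: tcgaaccGCGGGAAAcagggtgt

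*Cdc6*, chr11:98908003-98908027, plus strand: ccggtggagaGCGGGAAAtcgcctg

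The mitotic stretches are shown for CHR letters (TTTGAA or TTCAAA) beside CCAAT boxes (CCAAT or ATTGG). *Plk1* and *Kif23* are shown because the results below turn on them, and *Cdk1* because it was the only mitotic gene with E2F letters as well.

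*Cdk1*, chr10:69352913-69353047, minus strand: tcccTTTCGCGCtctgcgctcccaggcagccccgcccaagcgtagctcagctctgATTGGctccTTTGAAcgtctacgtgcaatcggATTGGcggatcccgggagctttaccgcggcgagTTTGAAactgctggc

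*Cdc20*, chr4:118437344-118437401, minus strand: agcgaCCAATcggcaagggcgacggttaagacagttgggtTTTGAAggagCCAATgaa

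*Kif11*, chr19:37376332-37376374, plus strand: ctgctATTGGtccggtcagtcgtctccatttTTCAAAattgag

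*Prc1*, chr7:80294409-80294451, plus strand: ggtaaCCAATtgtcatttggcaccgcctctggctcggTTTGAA

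*Kif23*, chr9:61946790-61946811, minus strand: cgctgATTGGcctgTTTGAAat

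*Plk1*, chr7:122159455-122159480, plus strand, CHR letters only in this stretch: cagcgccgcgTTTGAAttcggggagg

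A match of letters is a description of the sequence and not a bound site, and none of these libraries measured binding.

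Per kilobase of exon, the mean level over the 9 libraries ranged from 1.30 normalized counts per kb for *Cdt1* to 61.5 for *Mcm7*, a subunit of the replicative MCM helicase. *Mcm7* was followed by *Ccnd2* (50.3), which encodes a D-type cyclin that starts the cycle, and *Pcna* (49.8), the sliding clamp of the DNA polymerases. Next came *Ccnd1* (31.6), *Mcm4* (29.0), *Mcm6* (23.5) and the ribonucleotide reductase subunits *Rrm1* (21.2) and *Rrm2* (20.02), which make deoxynucleotides. The highest mitotic genes on this scale were *Top2a* (15.3), which untangles DNA, and *Mki67* (14.6), which coats mitotic chromosomes. *Cdk1*, the kinase that drives entry into mitosis, stood at 3.75 and *Cdc6*, a helicase loader, at 1.68. The exons of 14 of the 42 genes overlap those of another gene, *Mcm7* and *Ccnd2* among them. Since the strand setting of the counting is not given in the sources used here, the levels of those 14 may hold reads of their neighbours.

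The spread between libraries of the same genotype set what could be seen. The median within-genotype SD on the log2 scale was 0.30 for the S-phase genes, 0.34 for the G1/S genes and 0.39 for the mitotic genes, beside 0.29 for all 16993 genes tested. The mitotic genes also had fewer reads, with a median level of 26.6 normalized counts, beside 67.2 for the S-phase genes and 75.9 for all genes tested. *Mcm7* varied least (SD 0.14) and *Cdc45*, which joins the MCM ring in the active helicase, varied most (SD 1.30).

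**Figure D1:**
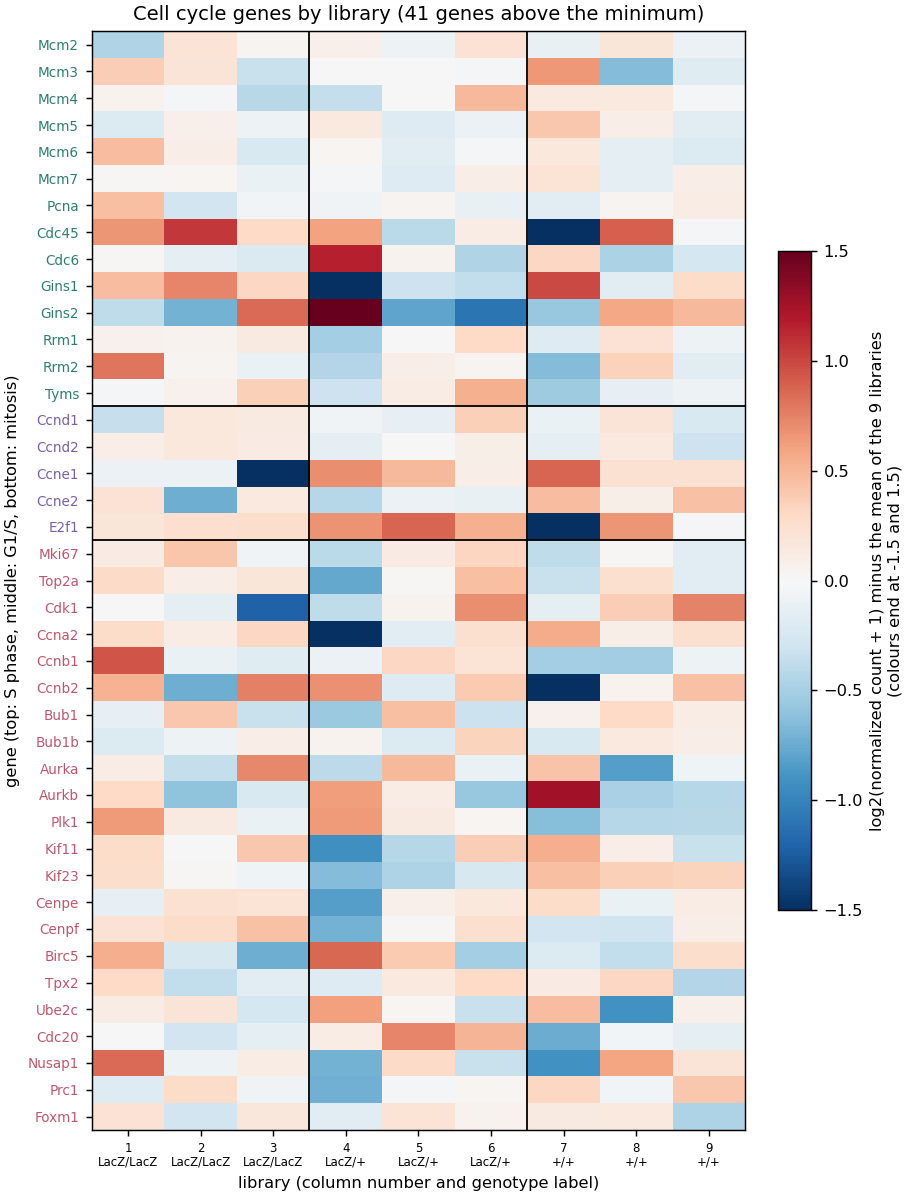
The 41 tested genes (rows, by class) in the 9 libraries (columns, by genotype label), with colour for log2(normalized count + 1) minus the mean of the gene over all libraries. The abundant *Mcm7* and *Ccnd2* hardly vary, column 7 is deep blue at *Cdc45* and *E2f1*, where it had 0 reads, and column 4 is blue for *Top2a*, *Ccna2*, *Kif11*, *Cenpe* and *Cenpf*.

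A gene was called where a limma fit of all 9 libraries, on log2(normalized count + 1), gave a two-sided unadjusted p under 0.05. In *Nkx2.9*LacZ/LacZ against *Nkx2.9*+/+ libraries, 2 of 41 genes were called (4.88%), beside 2.6% of all genes tested. In *Nkx2.9*LacZ/+ against *Nkx2.9*+/+ libraries it was 6 of 41 (14.6%), beside 2.78%. Without the shallow column 7 it was 1 of 41, beside 2.62% of all genes. In *Nkx2.9*LacZ/LacZ against *Nkx2.9*LacZ/+ libraries it was 2 of 41 (4.88%), beside 2.64%. None of the 41 genes passed after Benjamini-Hochberg adjustment over all genes, with limma adjusted p of at least 0.999 in each comparison and none under 0.05 in edgeR or DESeq2 on the recovered reads. Without adjustment, edgeR called 1, 3 and 1 of the 41 genes in the same order of comparisons, and DESeq2 called 0, 2 and 1. The comparisons share libraries, so that a call in a pair of them is not independent.

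The direction of the calls was split. Against *Nkx2.9*+/+, 1 gene was higher and 1 lower in *Nkx2.9*LacZ/LacZ libraries (background 1.38% higher and 1.22% lower), and 3 were higher and 3 lower in *Nkx2.9*LacZ/+ libraries (background 1.31% and 1.48%). Of the knockout against the heterozygous libraries, 1 was higher and 1 lower (background 1.49% and 1.15%). Groups of values did not overlap for 5 of 41 genes in *Nkx2.9*LacZ/LacZ against *Nkx2.9*+/+ (9.52% of all genes), for 5 in *Nkx2.9*LacZ/+ against *Nkx2.9*+/+ (6.91%) and for 6 in *Nkx2.9*LacZ/LacZ against *Nkx2.9*LacZ/+ (8.71%). Of the 7 genes called in any comparison, the exons of 4 (*Gins1*, *Ccne1*, *E2f1* and *Kif23*) overlap no other gene. Over all genes tested, 6.73% were called in any of the 3 comparisons.

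**Figure D2:**
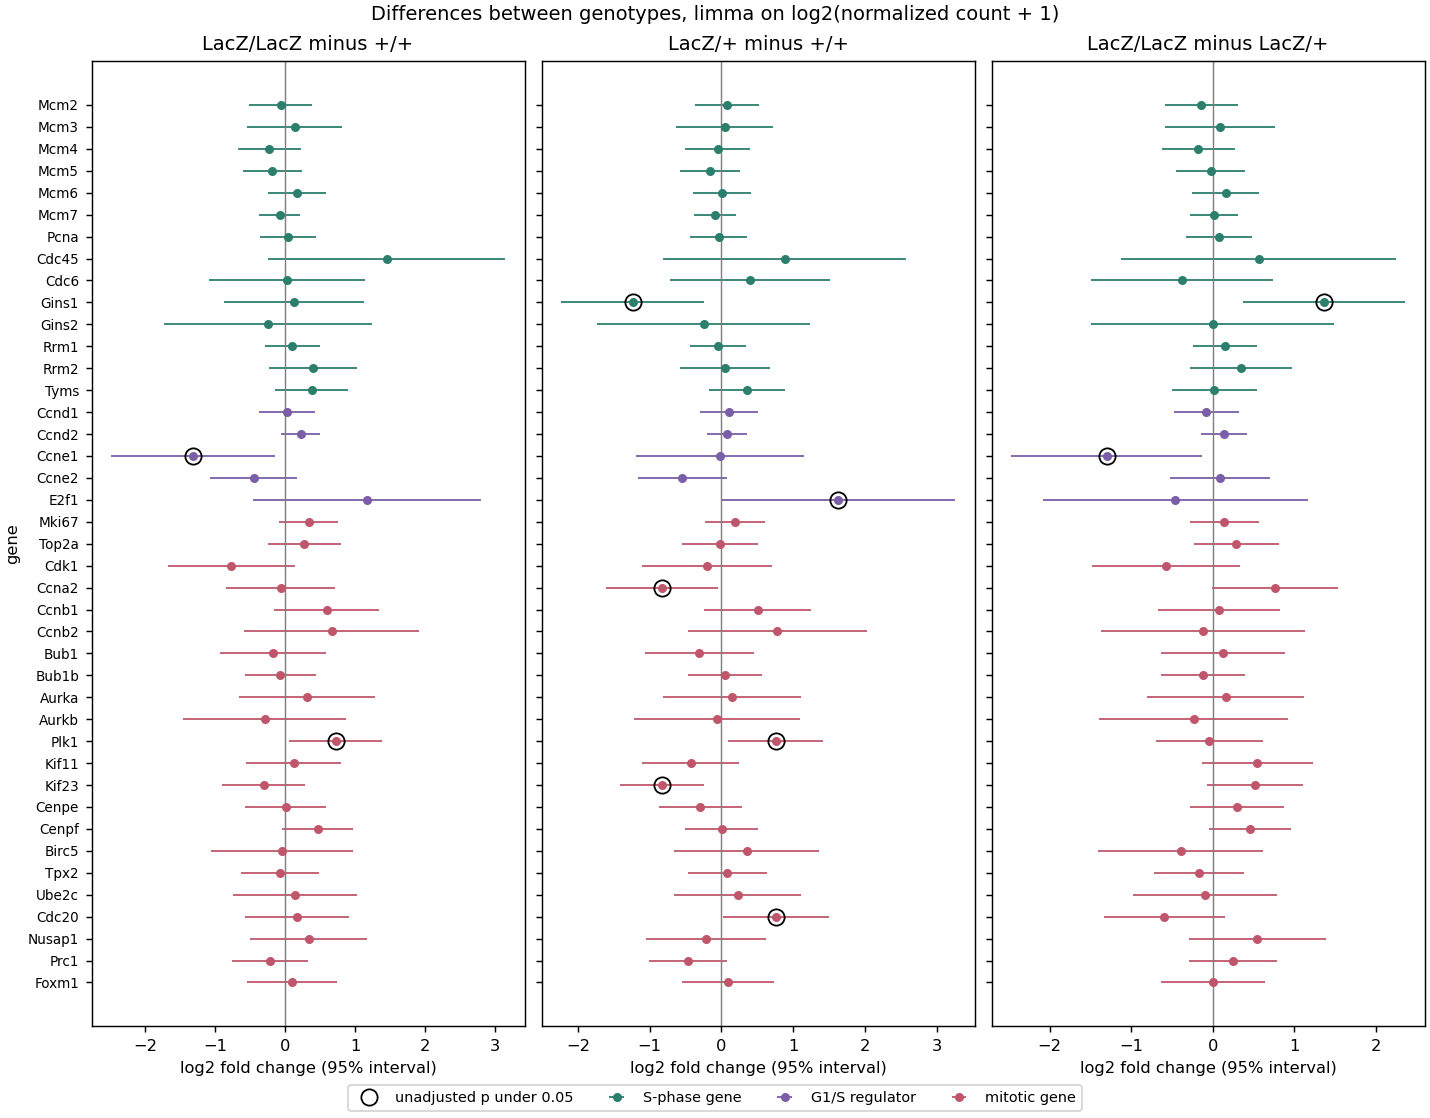
Log2 fold change of each of the 41 genes in the 3 comparisons, with the 95% confidence interval of the limma fit and a black ring where the unadjusted p was under 0.05. Of the S-phase genes (green), *Gins1* alone carries a ring, and the widest intervals are those of *Cdc45*, *E2f1* and *Gins2*, which have few reads.

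Among the S-phase genes, the subunits of the MCM helicase were close in all genotypes. *Mcm2* was at 54.9, 87.8 and 78.2 normalized counts in columns 1 to 3, at 79.9, 71.7 and 88.1 in columns 4 to 6 and at 69.8, 86.3 and 71.4 in columns 7 to 9. *Mcm5* was at 67.7, 82.3 and 73.9, then at 86.4, 68.3 and 73.4, and at 103, 83.5 and 69.9 in *Nkx2.9*+/+ libraries. The genotypes overlapped for both, and the *Nkx2.9*LacZ/LacZ minus *Nkx2.9*+/+ difference was −0.06 (95% interval −0.51 to 0.38) for *Mcm2* and −0.18 (−0.61 to 0.24) for *Mcm5* on the log2 scale. *Pcna* was at 162, 97.0 and 115 in *Nkx2.9*LacZ/LacZ libraries, at 114, 122 and 109 in *Nkx2.9*LacZ/+ libraries and at 106, 121 and 128 in *Nkx2.9*+/+ libraries, with a log2 difference of 0.04 (−0.36 to 0.45) between the outer genotypes. *Rrm2* was at 94.1, 54.9 and 49.8, then at 39.1, 57.2 and 54.7, and at 33.6, 68.1 and 47.8. Column 1 was the highest of the 9 libraries for *Pcna* and *Rrm2*, and for *Rrm2* the difference of 0.40 (−0.23 to 1.03) was within the spread. Of the 14 S-phase genes tested, limma, edgeR and DESeq2 each called 0 in *Nkx2.9*LacZ/LacZ against *Nkx2.9*+/+ without adjustment. *Tyms*, which makes thymidylate, was the S-phase gene whose values did not overlap there (62.7 ± 9.10 against 48.2 ± 8.16, SD, n = 3), with a difference of 0.38 that was not called.

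*Gins1* was the S-phase gene that was called. It encodes a subunit of the GINS complex, which joins the helicase to the polymerase, and lies at chr2:150905400-150931280 on the plus strand (GRCm38). It was at 21.1, 25.6 and 18.9 normalized counts in *Nkx2.9*LacZ/LacZ libraries, at 3.26, 12 and 11.4 in *Nkx2.9*LacZ/+ libraries and at 31.0, 13.3 and 18.4 in *Nkx2.9*+/+ libraries. All 3 *Nkx2.9*LacZ/+ values lay below the other 6. The mean was 8.88 ± 4.87 (SD, n = 3) in *Nkx2.9*LacZ/+ against 20.9 ± 9.12 in *Nkx2.9*+/+ libraries, a log2 fold change of −1.23 (SE 0.47, limma unadjusted p = 0.0184, exact permutation p = 0.1). The smallest p that an exact test of 3 against 3 libraries allows is 0.1. Against *Nkx2.9*LacZ/+, the *Nkx2.9*LacZ/LacZ libraries (21.9 ± 3.43) were higher by 1.36 (SE 0.47, limma unadjusted p = 0.0104, exact permutation p = 0.1). The lowest value, in column 4, rests on 2 reads. Neither call held without column 4, where the differences were −0.71 and 0.84, and the former did not hold without column 7, where it was −0.92.

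Among the G1/S regulators, the D-type cyclins were the most abundant and varied little. *Ccnd1* was at 116, 165 and 162 normalized counts in columns 1 to 3, at 142, 136 and 188 in columns 4 to 6 and at 137, 169 and 126 in columns 7 to 9. *Ccnd2* was at 502, 523 and 510, at 424, 470 and 499, and at 429, 521 and 378. The *Ccnd2* values of *Nkx2.9*LacZ/LacZ libraries lay above all 3 of *Nkx2.9*LacZ/+, by 0.14 on the log2 scale (95% interval −0.14 to 0.43), which limma did not call. Over *Nkx2.9*+/+, where the difference was 0.22 (−0.06 to 0.50), *Ccnd2* was called only with column 8 left out (0.35), among the fits with 1 library left out.

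*Ccne1*, the E-type cyclin that activates CDK2 at the entry into S phase (chr7:38097984-38107534, minus strand), was lower in *Nkx2.9*LacZ/LacZ libraries. It was at 12.8, 12.8 and 1.72 normalized counts there, at 22.8, 19.6 and 14.7 in *Nkx2.9*LacZ/+ libraries and at 25.9, 16.1 and 16.2 in *Nkx2.9*+/+ libraries. The *Nkx2.9*LacZ/LacZ values did not overlap with either other genotype. Their mean of 9.11 ± 6.40 (SD, n = 3) compared with 19.0 ± 4.10 and 19.4 ± 5.6, giving log2 fold changes of −1.30 against *Nkx2.9*LacZ/+ (SE 0.55, limma unadjusted p = 0.0317) and −1.31 against *Nkx2.9*+/+ (SE 0.55, p = 0.0303), with an exact permutation p of 0.1 in both. Column 3, with 2 reads of *Ccne1*, set the size of both. Without it they were −0.52 and −0.53 and were not called. The difference from *Nkx2.9*+/+ was −1.10 and not called without column 7, and edgeR (−0.98) and DESeq2 (−1.02) did not call it either. That from *Nkx2.9*LacZ/+ was not called without column 4 (−1.16) or 5 (−1.27), nor by edgeR (−1.01) or DESeq2 (−1.04). Without the mean-variance trend, neither was called. The other E-type cyclin, *Ccne2*, was not called in any comparison with all 9 libraries in the fit. Its difference from *Nkx2.9*+/+ was −0.45 in *Nkx2.9*LacZ/LacZ and −0.54 in *Nkx2.9*LacZ/+ libraries. The values of the latter did not overlap with *Nkx2.9*+/+, and this difference was called without column 2.

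*E2f1*, a founding E2F factor (chr2:154559407-154569892, minus strand), was at 11.3, 11.9 and 12 normalized counts in *Nkx2.9*LacZ/LacZ libraries, at 16.3, 18.8 and 14.7 in *Nkx2.9*LacZ/+ libraries and at 0, 16.1 and 9.57 in *Nkx2.9*+/+ libraries. The *Nkx2.9*LacZ/+ values overlapped with those of *Nkx2.9*+/+ and lay above those of *Nkx2.9*LacZ/LacZ. The call in *Nkx2.9*LacZ/+ against *Nkx2.9*+/+ (log2 fold change 1.63, SE 0.76, limma unadjusted p = 0.0495, exact permutation p = 0.2) held in 5 of 17 alternative fits. Its size rests on the shallow column 7, without which the difference was 0.38. The call was lost without any 1 of columns 1 to 7, with edgeR (0.66) or DESeq2 (0.71), with a pseudocount of 0.5, without the trend and with only the 2 genotypes in the fit.

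Of the 7 called genes, 4 were mitotic genes, counting *Ccna2*, whose cyclin A acts from S phase into mitosis. *Plk1*, a kinase of centrosomes and kinetochores (chr7:122159439-122169873, plus strand), was at 39.1, 27.4 and 23.2 normalized counts in *Nkx2.9*LacZ/LacZ libraries, at 39.1, 27.3 and 25.3 in *Nkx2.9*LacZ/+ libraries and at 15.5, 18.2 and 18.4 in *Nkx2.9*+/+ libraries. All 6 libraries labelled with a targeted allele (columns 1 to 6) lay above the 3 labelled wild type. The means were 29.9 ± 8.26, 30.6 ± 7.46 and 17.4 ± 1.62 (SD, n = 3 each), with log2 fold changes over *Nkx2.9*+/+ of 0.72 (SE 0.31, limma unadjusted p = 0.0340) and 0.76 (SE 0.31, p = 0.0268) and an exact permutation p of 0.1 for both. Both comparisons use the same 3 *Nkx2.9*+/+ libraries. The call of *Nkx2.9*LacZ/LacZ was lost without column 1 (0.52), 2 (0.76), 7 (0.65) or 8 (0.76), and that of *Nkx2.9*LacZ/+ without column 4 (0.57) or 7 (0.68). DESeq2 called neither (0.76 and 0.75). Another annotated gene, *Gm44985*, which had 28 reads in all, shares exon sequence with *Plk1*.

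*Kif23*, the motor of the central spindle needed for the last cut between daughter cells (chr9:61915905-61946774, minus strand), was at 31.6, 26.5 and 24.9 normalized counts in *Nkx2.9*LacZ/LacZ libraries. It was at 16.3, 18.8 and 22 in *Nkx2.9*LacZ/+ libraries and at 36.2, 33.7 and 33.1 in *Nkx2.9*+/+ libraries. No pair of genotypes overlapped, and the heterozygous libraries were the lowest, with the homozygous ones between. The mean was 19.0 ± 2.87 (SD, n = 3) in *Nkx2.9*LacZ/+ and 34.3 ± 1.64 in *Nkx2.9*+/+ libraries, a log2 fold change of −0.83 (SE 0.28, limma unadjusted p = 0.00900, exact permutation p = 0.1). This call held in all 18 alternative fits, edgeR (−0.81) and DESeq2 (−0.82) among them, with differences from −0.93 to −0.72. For *Nkx2.9*LacZ/LacZ (27.7 ± 3.50) the difference from *Nkx2.9*+/+ was −0.31 (95% interval −0.90 to 0.28) and was not called.

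*Cdc20*, which activates the anaphase-promoting complex (chr4:118432901-118437352, minus strand), was at 18.1, 14.6 and 16.3 normalized counts in *Nkx2.9*LacZ/LacZ libraries, at 19.6, 30.7 and 26.1 in *Nkx2.9*LacZ/+ libraries and at 10.3, 17.5 and 16.2 in *Nkx2.9*+/+ libraries. The *Nkx2.9*LacZ/+ values lay above the other 6, with a mean of 25.5 ± 5.62 (SD, n = 3) against 14.7 ± 3.83 in *Nkx2.9*+/+ libraries, a difference of 0.76 on the log2 scale (SE 0.35, limma unadjusted p = 0.0438, exact permutation p = 0.1). This call held in 6 of 17 alternative fits and was lost without column 1, 2, 3, 5, 6, 7 or 9, where the difference was 0.55 to 0.85, with edgeR (0.73) or DESeq2 (0.74), with no minimum and with only the 2 genotypes in the fit. *Ccna2* (chr3:36564865-36572150, minus strand) was at 59.5, 53.0 and 61.0, at 14.7, 43.5 and 57.9, and at 72.4, 51.9 and 58.2. Its *Nkx2.9*LacZ/+ values overlapped with both other genotypes, and the log2 fold change of −0.83 over *Nkx2.9*+/+ (SE 0.37, limma unadjusted p = 0.0385, exact permutation p = 0.2) was −0.26 and not called without column 4. The call held in 9 of 18 alternative fits and was also lost without column 1, 2, 7 or 9, with edgeR (−0.52) or DESeq2 (−0.56), without the trend and with only the 2 genotypes in the fit. The exons of *Cdc20* and *Ccna2* overlap those of *Elovl1* and *Exosc9*.

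**Figure D3:**
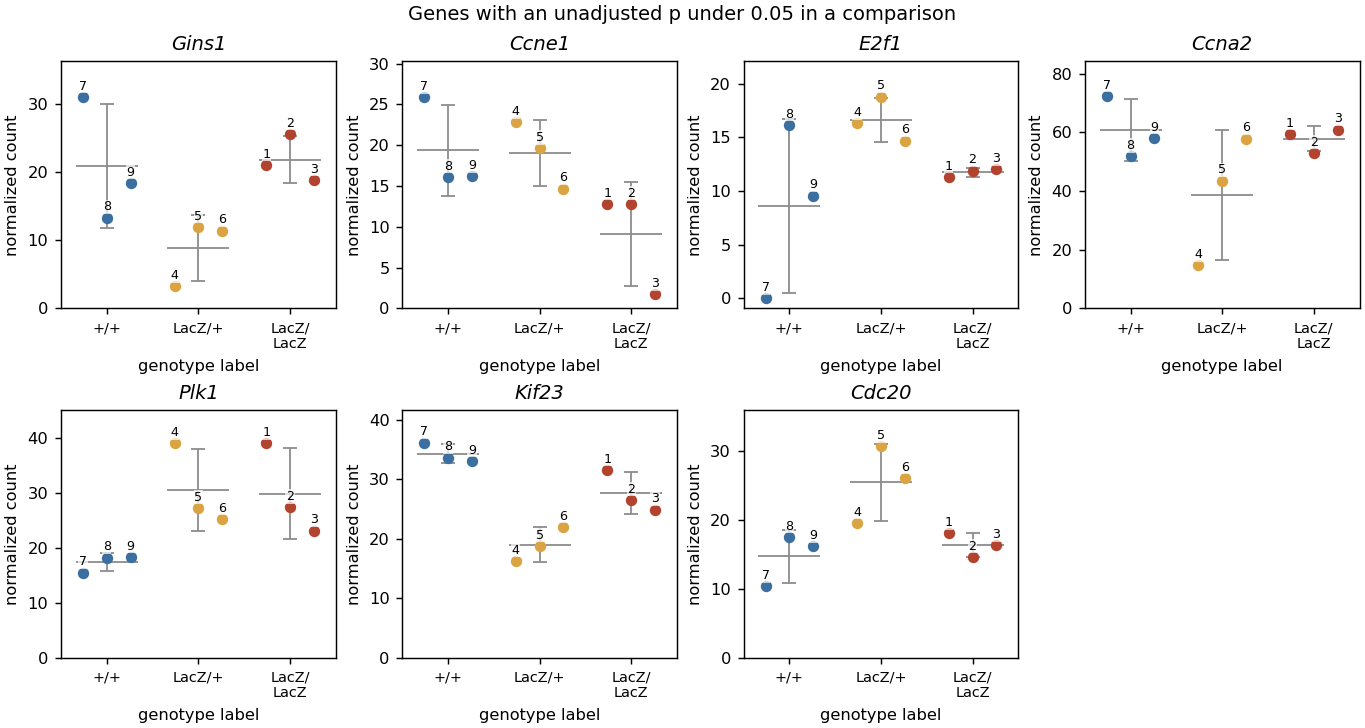
Normalized counts of the 7 called genes in each library (points, numbered by column), with the mean and SD of each genotype in grey. The points of *Kif23* fall into 3 separate groups by genotype, those of *Plk1* at +/+ lie below all others, and the low points of *Gins1* and *Ccna2* (column 4), *Ccne1* (column 3) and *E2f1* (column 7) each come from 1 library.

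The proliferation markers in common use were not called. *Mki67* was at 157, 194 and 139 normalized counts in *Nkx2.9*LacZ/LacZ libraries, at 109, 158 and 181 in *Nkx2.9*LacZ/+ libraries and at 111, 146 and 129 in *Nkx2.9*+/+ libraries. *Top2a* was at 164, 145 and 152, at 78.2, 136 and 184, and at 106, 159 and 120. The *Nkx2.9*LacZ/LacZ means of 163 ± 27.9 and 154 ± 9.88 (SD, n = 3) compared with 129 ± 17.4 and 128 ± 27.6 in *Nkx2.9*+/+ libraries. The log2 differences were 0.34 (95% interval −0.08 to 0.76) for *Mki67* and 0.27 (−0.25 to 0.80) for *Top2a*, and the groups overlapped for both. The test of *Mki67* turned on column 4. With that library left out of the fit, *Mki67* was called over *Nkx2.9*+/+ in *Nkx2.9*LacZ/LacZ (0.34) and in *Nkx2.9*LacZ/+ libraries (0.40).

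*Cenpf*, a large kinetochore protein made in G2, did not overlap between the outer genotypes. It was at 84.3, 87.8 and 98.8 normalized counts in *Nkx2.9*LacZ/LacZ libraries, at 44.0, 73.4 and 85.7 in *Nkx2.9*LacZ/+ libraries and at 59.5, 58.9 and 78.0 in *Nkx2.9*+/+ libraries. The log2 difference of 0.47 (95% interval −0.04 to 0.97) between the outer genotypes was not called by limma. It was called in 3 of 18 alternative fits, without column 4 (0.47), without column 9 (0.60) and with only the 2 genotypes in the fit (0.47).

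The kinase and cyclin that start mitosis had differences of opposite sign that did not pass the test. *Cdk1* was at 17.3, 15.5 and 6.87 normalized counts in *Nkx2.9*LacZ/LacZ libraries, at 13.0, 17.9 and 28.6 in *Nkx2.9*LacZ/+ libraries and at 15.5, 22.5 and 29.4 in *Nkx2.9*+/+ libraries. Its partner *Ccnb1* was at 44.4, 21.0 and 19.8, at 21.2, 28.2 and 26.1, and at 15.5, 15.4 and 21.3. The log2 difference between the outer genotypes was −0.77 (95% interval −1.68 to 0.14) for *Cdk1* and 0.59 (−0.15 to 1.34) for *Ccnb1*. With column 7 left out, *Cdk1* was called. *Foxm1*, the transcription factor of the G2 program, was at 30.1, 21.0 and 29.2, at 22.8, 29.9 and 26.9, and at 28.4, 28.8 and 18.4, a difference of 0.09 (−0.55 to 0.74). For 24 of the 41 genes the 95% interval of this comparison lay within −1 and 1 on the log2 scale. The same held for 11534 of all 16993 genes tested. A change of 1 log2 unit either way fell outside the intervals of those 24 genes.

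Side by side, the medians of S-phase and mitotic genes lay close together. In *Nkx2.9*LacZ/LacZ against *Nkx2.9*+/+ libraries, the median log2 fold change was 0.07 over 14 S-phase genes, 0.03 over 5 G1/S genes and 0.11 over 22 mitotic genes, beside 0.01 over all genes tested. In *Nkx2.9*LacZ/+ against *Nkx2.9*+/+ libraries, these were −0.01, 0.08 and 0.03, beside −0.01. In *Nkx2.9*LacZ/LacZ against *Nkx2.9*LacZ/+ libraries, they were 0.05, −0.08 and 0.11, beside 0.02. The mitotic median was the higher of the pair each time, by less than the spread between libraries of a genotype (0.17, the pooled SD of the difference of class means per library, not of medians). The S-phase median minus the mitotic median was −0.03, −0.04 and −0.06 in the 3 comparisons. Its sign was not stable. With means in place of medians, it was 0.05, −0.02 and 0.06, and leaving out 1 library turned it in every comparison, to 0.05 without column 3 in the first, to 0.09 without column 5 in the second and to 0.10 without column 4 in the third. Of the 41 genes, 25, 22 and 24 had a positive difference (61.0%, 53.7% and 58.5%), beside 52.3%, 48.6% and 53.1% of all genes tested.

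Summed over its genes, the S-phase class stood at 1306, 1215 and 1152 normalized counts in *Nkx2.9*LacZ/LacZ libraries, at 1089, 1122 and 1303 in *Nkx2.9*LacZ/+ libraries and at 1205, 1215 and 1155 in *Nkx2.9*+/+ libraries. The mitotic class stood at 1044, 956 and 947, at 675, 930 and 1040, and at 866, 921 and 886. The S-phase sums overlapped in all genotypes, while the 3 mitotic sums of *Nkx2.9*LacZ/LacZ libraries lay above the 3 of *Nkx2.9*+/+ libraries (982 ± 53.5 against 891 ± 27.5, SD, n = 3 each). The S-phase sum per mitotic sum was accordingly 1.25, 1.27 and 1.22 in *Nkx2.9*LacZ/LacZ libraries and 1.39, 1.32 and 1.30 in *Nkx2.9*+/+ libraries. In *Nkx2.9*LacZ/+ libraries it was 1.61 in column 4 and 1.21 and 1.25 in columns 5 and 6. Abundant genes weigh most in these sums, while each gene counts alike in the medians above. Between the outer genotypes, the mitotic genes with the largest differences in mean were *Mki67* (163 against 129), *Top2a* (154 against 128) and *Cenpf* (90.3 against 65.5), none of them called. Of the 22 mitotic genes, 13 had a positive log2 difference there and 9 a negative one. No test was made on either, since the genes were chosen with results of these libraries known.

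**Figure D4:**
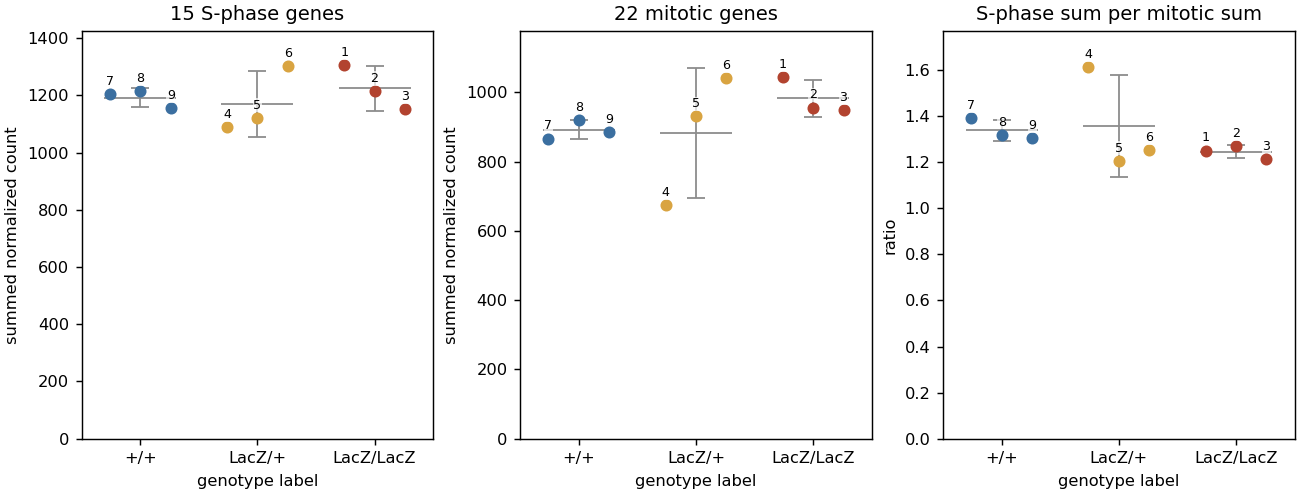
Summed normalized counts of the S-phase and mitotic genes and the ratio of the sums (vertical axes, from 0) by genotype, with a point per library numbered by column and the mean and SD in grey. Column 4 (LacZ/+) stands apart, with the lowest mitotic sum (675) and the highest ratio (1.61).

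Column 4 stood apart in the mitotic class. It was the lowest of the 9 libraries for 9 of 22 mitotic genes, *Mki67*, *Top2a*, *Ccna2*, *Bub1*, *Kif11*, *Kif23*, *Cenpe*, *Cenpf* and *Prc1*. Its S-phase sum of 1089 was also the lowest of the 9 libraries, but near the 1122 of column 5. Of those 9 mitotic genes, all but *Ccna2* (4083 exonic bases) have more than 4314.5 exonic bases. The 11 mitotic genes above that length summed to 422 normalized counts in column 4 and to 621 to 770 in the other 8 libraries, whereas the 11 shorter ones summed to 253 in column 4 and to 238 to 335 elsewhere. Over the 22 mitotic genes, Spearman's rho between exonic length and the deviation of the gene from its 9-library mean was −0.67 in column 4 and −0.36 to 0.57 in the other libraries. Genes of 1 library share its depth and RNA, so that these values are a description.

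A weaker relation with length was present in column 4 across all genes. Over 16951 genes, rho was −0.18 in column 4, the lowest of the 9 libraries, the others being between −0.14 and 0.11. The median deviation in column 4 was −0.07 for the 7734 genes above that length and 0.10 for the 9217 below it. The 6 S-phase genes above it summed to 684 in column 4 and to 709 to 858 elsewhere, and 35 further mitotic genes above it to 1752 and to 1808 to 1969. The further replication genes did not follow it. Their 25 longer genes summed to 2588 in column 4, within the 2324 to 2590 of the other libraries, and their 21 shorter ones to 1211, below the 1228 to 1435 elsewhere. Depth, at 2584074 reads, erythroid markers (summed level 2273, the highest of the 9 libraries, against 1499 to 2175), midbrain markers (1912, also the highest, against 1169 to 1555) and neuron markers (30850, the lowest, against 33247 to 36947) moved with the low mitotic sum in column 4, and their part in it was not tested. Without column 4, the mean mitotic sum of *Nkx2.9*LacZ/+ libraries was 985 in place of 882 ± 187 (SD, n = 3).

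**Figure D5:**
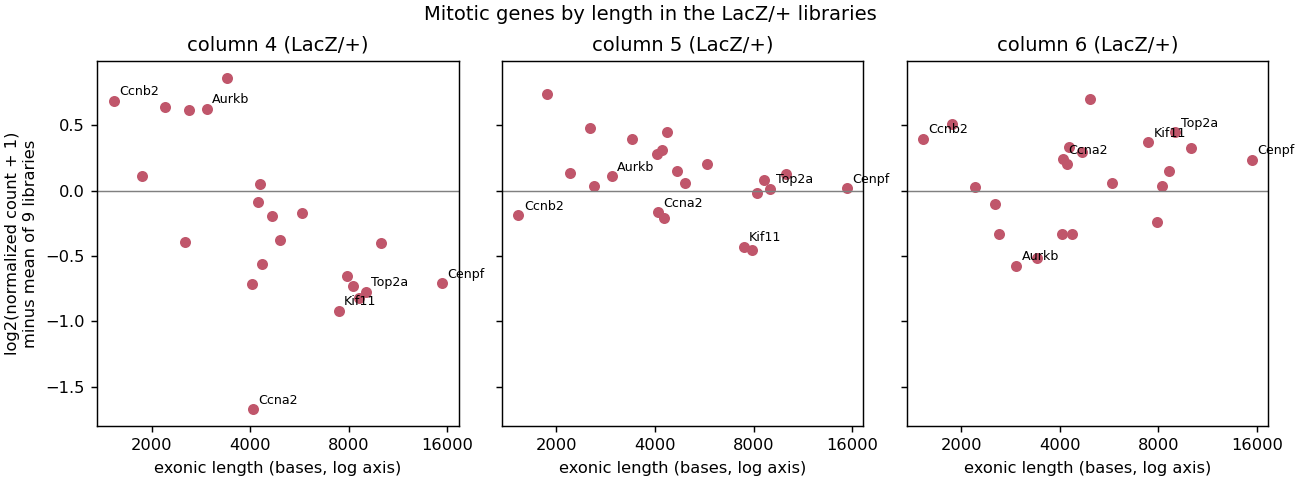
Deviation of each of the 22 mitotic genes from its mean over the 9 libraries, in log2(normalized count + 1), against exonic length on a log axis, for the 3 LacZ/+ libraries. In column 4 the points fall from short to long genes (rho −0.67), which columns 5 (−0.36) and 6 (0.22) show less or not.

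The wider cell cycle program gave few calls. Beside it, 2.6% of all genes tested were called in *Nkx2.9*LacZ/LacZ against *Nkx2.9*+/+ libraries (1.38% higher and 1.22% lower). Of 45 further replication genes tested, 1 was called in *Nkx2.9*LacZ/LacZ against *Nkx2.9*+/+ libraries (2.22%), *Chaf1b*, a subunit of the chromatin assembly factor that follows the replication fork. It was at 17.3, 13.7 and 30.1 normalized counts (mean 20.4 ± 8.59, SD, n = 3) against 54.3, 37.2 and 19.9 in *Nkx2.9*+/+ libraries (37.1 ± 17.2), with groups that overlapped (log2 fold change −0.80, SE 0.38). Of 51 further mitotic genes, 1 was called (1.96%), the spindle gene *Ckap2*, at 33.1, 26.5 and 37.8 normalized counts against 0, 31.6 and 15.5 in columns 7 to 9. Its groups overlapped, and the 0 is again in the shallow column 7. Of 34 cell cycle regulators, 2 were called (5.88%), both lower in *Nkx2.9*LacZ/LacZ libraries. *E2f4*, an E2F that represses its targets in resting cells, was at 103, 119 and 104 against 137, 149 and 160 (log2 fold change −0.45, SE 0.17), and *Wee1*, the kinase that holds CDK1 back, at 24.8, 21.95 and 14.6 against 36.2, 25.96 and 36.1 (−0.67, SE 0.31). The median log2 fold changes of the 3 lists were 0.12, 0.13 and −0.03.

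In *Nkx2.9*LacZ/+ against *Nkx2.9*+/+ libraries, 2 of 51 further mitotic genes (3.92%) and 1 of 34 regulators (2.94%) were called, beside 2.78% of all genes tested. The mitotic calls went opposite ways. The kinase gene *Melk* was lower, at 0, 5.12 and 7.34 normalized counts in columns 4 to 6 against 20.7, 9.82 and 8.1 in columns 7 to 9 (log2 difference −1.80, SE 0.72). *Ckap2* was higher, at 40.7, 23.9 and 26.9 against the values of columns 7 to 9 given above (1.92, SE 0.85), and the groups overlapped. Among the regulators, *E2f8*, a repressive E2F, was higher, at 14.7, 6.83 and 5.71 against 0, 4.91 and 3.68 (1.63, SE 0.75). All 3 genes had 0 reads in column 4 or 7, the shallowest libraries. For knockout against heterozygous libraries, limma called 0 of 45 replication genes, 1 of 51 mitotic genes (1.96%) and 0 of 34 regulators without adjustment, beside 2.64% of all genes. The call was the kinesin gene *Kif20a*, at 29.4, 37.5 and 25.8 against 9.78, 24.8 and 13.9 (0.97, SE 0.36).

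Markers of the cell types in the tissue gave few calls. The 10 progenitor markers summed to 3827 to 4600 normalized counts in *Nkx2.9*LacZ/LacZ libraries, to 4131 to 4312 in *Nkx2.9*LacZ/+ libraries and to 4151 to 4536 in *Nkx2.9*+/+ libraries, and limma called 0 of the 10 in any comparison without adjustment. The 12 neuron markers summed to 34808 to 34829, to 30850 to 36947 and to 33247 to 35788, again with 0 calls. Endothelial markers (480 to 586 over all libraries) and microglial markers (76.7 to 111) also gave 0 calls, as did erythroid markers, whose range was 1499 to 2273. The 8 midbrain markers summed to 1249 to 1368 in *Nkx2.9*LacZ/LacZ libraries, to 1169 to 1912 in *Nkx2.9*LacZ/+ libraries and to 1462 to 1555 in *Nkx2.9*+/+ libraries. Of these, *Pax7* and *En1* were called lower in columns 1 to 3 (label *Nkx2.9*LacZ/LacZ) than in columns 7 to 9 (label *Nkx2.9*+/+), 2 of 8 genes beside the 2.6% of all genes called there. The list as a whole did not go that way, with 5 positive and 3 negative log2 differences and a median of 0.03. *Pax7* was at 156, 229 and 135 against 318, 254 and 221 normalized counts (log2 difference −0.63, SE 0.22), with groups that overlapped, and *En1* at 157, 188 and 194 against 274, 225 and 322 (−0.60, SE 0.25), with groups that did not.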

How the data were processed

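RNA of dissected E14.5 midbrains was sequenced in 9 libraries, 3 per genotype. According to the methods, the authors extracted RNA with a column kit, depleted ribosomal RNA, sequenced 100-bp paired ends, mapped them to GRCm38/mm10 (Hisat2) and used featureCounts for the count per gene. Versions, annotation release and strand setting are not given in the sources used here. The sample labels describe a phenol-based extraction and an mRNA protocol, and the series title speaks of cortex; the methods were followed. The deposited signal is a normalized count per gene and library: the authors scaled each library's counts by its DESeq2 size factor. The authors also deposited 3 tables of their DESeq2 comparisons (log2 fold changes, standard errors, Wald statistics and p-values), which were not used here.

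Each column was assigned to the genotype in its name. Whole reads were recovered from the smallest step of each library, which gave 100% of 210686 values within 0.01 of a whole number. Gene names, positions and exonic lengths came from a GRCm38 annotation that matched 51633 of 51912 identifiers. The main test was limma 3.58.1 in R 4.3.3 (lmFit, eBayes with a mean-variance trend) on log2(normalized count + 1) for the 16993 genes with a mean of at least 5, all libraries in 1 fit, two-sided, with Benjamini-Hochberg adjustment over all genes tested. Fold changes are on this scale, where the pseudocount weighs most on low genes. For low genes with 1 library near 0 they could be larger than in the fits on reads (for *E2f1*, 1.63 against 0.66 with edgeR). Nothing in the sources numbers the pools behind the columns. The limma p-values set a difference against the spread of the gene between these libraries, drawn towards the trend over all genes. Exact permutation tests of 3 against 3 libraries were run per gene. On the recovered reads, edgeR 4.0.16 called 421, 372 and 451 genes at an unadjusted p under 0.05 in the 3 comparisons of the text, DESeq2 1.42.0 called 316, 264 and 323, and limma 441, 473 and 449. The fits were tested on simulated data. Intervals are 95% confidence intervals, and plots were made in Python 3.11.15 with matplotlib 3.10.9.

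The 42 genes, their classes, the further gene lists, the markers and the tests were chosen with earlier results of these data known. Values in every library are given for those of the 42 genes that were called in a comparison and for *Mcm2*, *Mcm5*, *Pcna*, *Rrm2*, *Ccnd1*, *Ccnd2*, *Ccne1*, *E2f1*, *Mki67*, *Top2a*, *Cdk1*, *Ccnb1*, *Cdc20* and *Foxm1*; *Cenpf*, *Tyms* and *Ckap2* were added or given in full after their values were seen. From the further lists, up to 5 genes with the smallest p under 0.05 in *Nkx2.9*LacZ/LacZ against *Nkx2.9*+/+ are named, and the few others named were chosen after seeing them. The calls of the further replication genes in *Nkx2.9*LacZ/+ against *Nkx2.9*+/+ libraries are not reported here. Lists of forebrain and choroid plexus markers were also read and gave 0 calls. The alternatives were pseudocounts of 0.5 and 5, no minimum or a minimum of 20, only the 2 genotypes compared, upper-quartile scaling, edgeR with TMM, DESeq2, no trend, leaving out each library, and, for the S-phase minus mitotic median, other classes and the mean. The split by exonic length and the count without overlapping genes were chosen after seeing the data.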

Additional observations from a re-analysis of the deposited data

How the results depend on the processing

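No paired analysis was possible because the columns carry no replicate number. The number of genes called in *Nkx2.9*LacZ/LacZ against *Nkx2.9*+/+ libraries (2) was 1 with a minimum of 20, 1 with edgeR, 0 with DESeq2 and 1 without the trend. In *Nkx2.9*LacZ/+ against *Nkx2.9*+/+ libraries (6) it was 3 with a minimum of 20, 3 with only the 2 genotypes in the fit, 3 with edgeR (*Gins1*, *Plk1* and *Kif23*) and 2 with DESeq2 (*Gins1* and *Kif23*). In *Nkx2.9*LacZ/LacZ against *Nkx2.9*LacZ/+ libraries (2) it was 0 with a minimum of 20, where 28 of the 42 genes remained to be tested and *Gins1* and *Ccne1* were not among them, and 1 with edgeR or DESeq2 (*Gins1*). Apart from the minimum, the cause was not tested. Leaving out 1 library gave 1 to 4 calls in the first comparison (1 without column 1, 2, 3 or 7, and 4 without 4 or 8), 1 to 7 in the second (1 without column 7, 3 without 1) and 0 to 6 in the third (0 without column 4, 1 without 3, 6 without 6). The share of all genes called moved too, over 1.67% (without column 2) to 4.87% (without column 8) in the first, 2.21% (2) to 5.49% (4) in the second and 1.72% (2) to 4.35% (5) in the third, with 4.51% without column 4 in the first and 4.04% without column 6 in the third.

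The S-phase minus mitotic median stayed under 0.17, the pooled SD between libraries of the difference of class means, except for −0.19 with a minimum of 20 in the third comparison. Leaving out 1 library moved it over −0.08 to 0.05, −0.05 to 0.09 and −0.13 to 0.10, the mean in place of the median gave 0.05, −0.02 and 0.06, and a minimum of 20 gave −0.02, 0.00 and −0.19, so that its sign was not settled. Among the values of the called genes and of the others fixed for full values, 54 lost a call, 12 gained 1, and 51 changed sign, none of them a called value. *Cenpf*, *Tyms* and *Ccne2* are not in these counts. The share of genes called in any comparison was 7 of 41 (17.1%), and 4 of 27 (14.8%) among those whose exons overlap no other gene, beside 6.73% of all genes tested. Depth limits the genes with few reads most, and 3 of them had 0 reads in column 7.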
